A study of Mus musculus with 72 samples.

Results

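The genes described are the subunits of the GABA-A receptor and of the glutamate receptors, measured in brain and other tissues of SAMP1 mice. Members were all probe sets whose gene symbol on the platform names a GABA-A subunit (alpha, beta, gamma, delta, epsilon, theta or rho) or a glutamate receptor (AMPA, kainate, NMDA, delta or metabotropic), with Gabra6 and receptor-interacting proteins left out. They were 72 probe sets of 35 genes, out of 45037 probe sets and 18193 genes with 1 symbol. Of these, 31 probe sets stood for 13 GABA-A genes and 41 for 22 glutamate receptor genes, the latter being 10 of 4 AMPA genes, 8 of 5 kainate genes, 12 of 6 NMDA genes, 2 of 1 delta gene and 9 of 6 metabotropic genes. A further 2 probe sets carried several symbols and were left out.

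SAMP1 is an inbred mouse strain prone to accelerated senescence. Female mice were put at 4 weeks of age on a control diet, on Q10 (the oxidised form of coenzyme Q10) or on QH2 (its reduced form), with an intake of 500 mg per kg body weight a day of either compound. Brain, liver, kidney and heart were taken after 6 months on the diet, at an age of 7 months, or after 14 months, at an age of 15 months. Each combination of tissue, diet and duration had 3 arrays of 3 mice, giving 24 groups and 72 arrays, of which 18 were of brain. No strain without accelerated senescence is among the groups, and cages of 3 to 6 mice kept their grouping, so that diet and cage may coincide. Age rose with time on the diet, so that these cannot be told apart.

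GABA-A receptors are chloride channels assembled from several subunits, and they carry most fast inhibition in the brain. Alpha and beta subunits form the GABA site, gamma subunits hold the receptor at synapses, and the delta subunit is typical of receptors outside synapses that give a steady, tonic inhibition. Glutamate drives fast excitation through AMPA and kainate channels. NMDA receptors pass calcium when glutamate coincides with depolarisation, and metabotropic receptors act through G proteins. The subunits differ between brain regions, so their levels in a tissue sample depend on the regions it holds.

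The values are normalised signals, that is the brightness of each probe set after the 18 brain arrays were brought to the same distribution. The mean signal per brain array as deposited ran from 142.6 to 203.3 at 6 months and from 166.8 to 281.5 at 14 months, and the number of arrays limits the precision. The brain label was borne out by its neuron markers, with Snap25 at a mean signal of 9850 in brain and between 2.57 and 3.3 in the other tissues. The regions held by the samples were not the same at both durations. The summed signal of 11 markers of cerebellar granule and Purkinje cells ran from 2430 to 3170 in the 9 arrays at 6 months and from 12300 to 14700 in the 9 arrays at 14 months, and all 11 were called higher. Pcp2, a Purkinje cell gene, had a mean of 16.4 at 6 months and 1740 at 14 months, and the granule cell gene Cbln3 had 11.8 and 1300. Of 9 markers of excitatory neurons of cortex and hippocampus 6 were called lower at 14 months and 0 higher (0 and 2 as deposited), and 6 of 7 astrocyte markers were called higher. Of 7 oligodendrocyte markers 6 were higher and 1 lower (Mog 0.80 ± 0.0808), and of 6 hypothalamic markers 4 were higher (Pmch 2.40 ± 0.599). Of 10 markers of all neurons 2 were higher and 5 lower, among them Syt1 at -0.43 ± 0.0284, a split that was 8 and 0 as deposited. Over all tested probe sets 28.5% were called higher and 27.7% lower in this comparison. The Actb 3' to 5' ratio, a measure of RNA quality, ran from 1.746 to 1.946 at 6 months and from 1.656 to 1.786 at 14 months. Duration, age, the regions and cell types in the sample and this ratio cannot be told apart in any comparison of 14 against 6 months. Fewer cells of a type and less RNA per cell cannot be told apart in such samples either.

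Signals of most called receptor subunits were lower in the brain arrays at 14 months than in those at 6 months. Averaged over the 3 diets (9 against 9 arrays), the AMPA subunits Gria2 and Gria3, the GABA-A subunits Gabra3 and Gabrg3, the kainate subunit Grik5, the NMDA subunit Grin2a and the metabotropic receptors Grm2 and Grm5 fell by 0.53 to 0.84 on the log2 scale, with the same sign but fewer calls in the values as deposited. Grm4, Grik3, Gria4, Gabrg1 and Grin2c rose by 0.39 to 0.94. A probe set was tested where its mean lay above the 40th percentile of brain, and called at a limma adjusted p under 0.05. Of the 72 probe sets 60, of 30 genes, were tested, and 41 of them were called, 8 higher and 33 lower, where 56.2% of all 27022 tested probe sets were called, 28.5% higher and 27.7% lower. With the values as deposited, where the median of all probe sets rose by 0.42, 34 of the 60 were called and the split turned to 24 higher and 10 lower. The shares of all probe sets and of all genes called on that scale are not given here, so nothing particular to the members is read from these counts. The changes are relative to the other probe sets of an array. With the cerebellar marker level as a covariate, which separates the durations by itself, 0 of the 60 were called.

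Taking each gene by its brightest tested probe set, 5 of 30 genes rose, 14 fell and 11 were not called, against 4318, 2654 and 5633 of all 12605 genes. The median log2 fold change was -0.15 over the 30 genes and 0.07 over all genes. As deposited, the sign turned for 6 of the 14 that fell (Gabra4, Gabrb1, Gabrb2, Gria1, Grm3 and Grm7), and of those Gabrb2 and Grm7 were then called higher. All 5 that rose were called again. In all 16 of the 30 were called higher as deposited and 3 lower (Gabra3, Gabrg3 and Grin2a). Those called higher included Gabra2, Gabra5, Gabrd, Grid1, Grik1, Grik2, Grin2b, Grin2d and Grm8, which were not called in the normalised values. All 19 called genes kept their call and sign in each of the 18 fits that left out 1 array.

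The 3 diets shared no array in this comparison and gave like counts. On control diet 30 of the 60 probe sets were called, 5 higher and 25 lower (32.8% of all probe sets were called). On Q10 34 were called, 4 higher and 30 lower (28.6% of all), and on QH2 31, 7 higher and 24 lower (34.9% of all). As deposited the counts were 14 (8 higher and 6 lower) on control diet, 16 (12 higher and 4 lower) on Q10 and 15 (11 higher and 4 lower) on QH2. The share of all probe sets called on that scale is not given here. In the normalised values 22 of the 60 (36.7%) were called lower on all 3 diets, against 8.86% of all probe sets, and 3 (5%) were called higher on all 3, against 8.68%. Those 3 were the probe sets of Gria4 (1435722_at), Grik3 and Grm4.

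**Figure D1:**
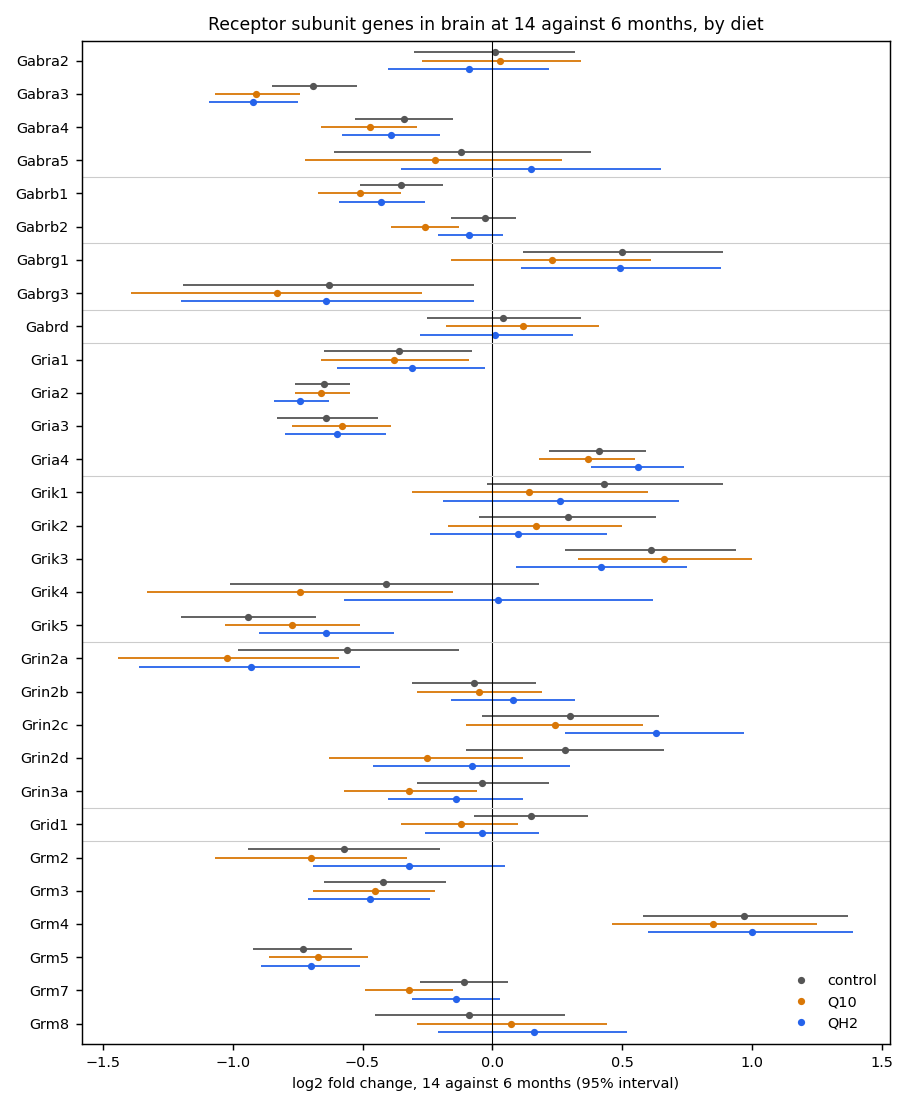
Log2 fold change at 14 against 6 months for the brightest tested probe set of 30 receptor genes in brain, 1 point per diet (3 against 3 arrays) with its 95% interval from limma, genes grouped by receptor class. Intervals of 11 genes, among them Gria2, Gabra3, Grik5, Grin2a and Grm5, lie below 0 on all 3 diets and those of Gria4, Grik3 and Grm4 above 0, on normalised values; as deposited the signs of Gabra2, Gabra4, Gabra5, Gabrb1, Gabrb2, Gria1, Grid1, Grin2b, Grin2d, Grin3a, Grm3 and Grm7 turn in the mean over diets.

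Among the GABA-A alpha subunits, which set the receptor's pharmacology and place in the cell, Gabra3 showed the lowest adjusted p. Its signal (probe set 1436957_at) ran from 576.9 to 676.5 with a median of 635.7 in the 9 arrays at 6 months, and from 324.0 to 442.4 with a median of 340.1 at 14 months. The durations did not overlap, as for 18 of the 60 member probe sets that were lower and 2 that were higher (9.03% and 8.63% of all probe sets). Gabra3 fell by 0.84 ± 0.0459 (SE; adjusted p = 6.2e-11), and by 0.33 as deposited. Gabra4, an alpha subunit often paired with delta, had medians of 958.5 and 710.8, and fell by 0.40 ± 0.0517, a sign that turned as deposited (0.12). Gabra5, the alpha subunit best known from hippocampal pyramidal cells, ran from 225.5 to 453.8 at 6 months and from 263.5 to 359.1 at 14 months, with fully overlapping arrays and no call (-0.06 ± 0.137). As deposited Gabra5 was called higher (0.44, adjusted p = 0.00701). Gabra2 was not called by its brightest probe set (-0.02 ± 0.0853), although its other tested probe sets fell by 0.61 ± 0.0676 and 0.74 ± 0.0755 without overlap. As deposited the brightest was called higher (0.50, adjusted p = 0.000605).

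Both beta subunits measured fell, though as deposited both signs turned. Gabrb1 then lay at 0.09, not called, and Gabrb2 at 0.39, called higher (adjusted p = 0.00662). Gabrb1 (1419719_at) ran from 866.6 to 1048.3 at 6 months with a median of 991.0, and from 634.4 to 761.6 at 14 months with a median of 743.5. The durations were apart, and the difference was -0.43 ± 0.0452 (adjusted p = 2.36e-07). Gabrb2 had medians of 1514 and 1396 with overlapping arrays, and its difference of -0.13 ± 0.0350 (adjusted p = 0.00457) was called on Q10 but not on the other diets, with no test of that difference passing (adjusted p = 0.979 for Q10 against control). With trimmed mean scaling Gabrb2 was not called (adjusted p = 0.0581).

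By their brightest probe sets the gamma subunits went in opposite directions. Gabrg1, known from amygdala, hypothalamus and glia, ran from 146.9 to 265.0 at 6 months and from 229.8 to 308.8 at 14 months, and its medians of 215.4 and 269.8 differed by 0.41 ± 0.106 (adjusted p = 0.00307) although arrays overlapped. Its other tested probe set, 1427227_at, had medians of 90.6 and 95.9 and was not called (0.12). Gabrg3 was dim, at medians of 53.5 and 31.2 with overlap, and fell by 0.70 ± 0.154 (adjusted p = 0.000788). Gabrd, the delta subunit of tonic inhibition, had medians of 406.1 and 377.7 and was not called (0.06 ± 0.0811). As deposited Gabrd was called higher (0.57, adjusted p = 0.000151). The epsilon, theta and rho subunits Gabre, Gabrq, Gabrr1 and Gabrr2 lay below the filter in brain and were not tested.

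Several of these subunits sit near each other on mouse chromosome 5, in the order Gabrg1, Gabra2, Gabra4 and Gabrb1, where Gabra4 and Gabrb1 are immediate neighbours read in opposite directions. The 250 bases before the transcription start are shown because the calls of these neighbours differed in direction in brain. Gabrg1 rose by 1 of its 2 tested probe sets, and the other was not called. Gabra4 fell by 1 of 2 and Gabrb1 by all 4, though the signs of their brightest probe sets turned as deposited. Gabra2 fell by 2 of its 3 tested probe sets. The sequences are from RefSeq on GRCm38.p6, written 5' to 3' on the gene's own strand, with matches to GGGCGG (the Sp1 box) on either strand in capitals. They lie at chr5:70842618-70842867 on the minus strand (Gabrg1), chr5:71095850-71096099 on the minus strand (Gabra2), chr5:71658309-71658558 on the minus strand (Gabra4) and chr5:71657671-71657920 on the plus strand (Gabrb1, the start nearest Gabra4).
Gabrg1: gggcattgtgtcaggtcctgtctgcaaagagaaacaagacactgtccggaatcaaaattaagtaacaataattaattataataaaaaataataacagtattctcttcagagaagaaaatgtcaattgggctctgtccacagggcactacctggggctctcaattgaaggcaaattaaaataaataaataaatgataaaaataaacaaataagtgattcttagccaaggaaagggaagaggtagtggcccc
Gabra2: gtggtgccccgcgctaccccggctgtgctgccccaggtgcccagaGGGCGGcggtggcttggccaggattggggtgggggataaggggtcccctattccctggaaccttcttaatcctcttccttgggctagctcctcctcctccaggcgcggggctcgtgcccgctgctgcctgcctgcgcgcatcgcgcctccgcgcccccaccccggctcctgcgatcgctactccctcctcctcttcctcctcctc
Gabra4: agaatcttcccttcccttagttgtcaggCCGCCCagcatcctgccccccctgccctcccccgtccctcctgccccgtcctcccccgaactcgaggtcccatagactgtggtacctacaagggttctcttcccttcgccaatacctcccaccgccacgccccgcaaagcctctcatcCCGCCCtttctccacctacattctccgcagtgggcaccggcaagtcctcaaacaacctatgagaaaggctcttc
Gabrb1: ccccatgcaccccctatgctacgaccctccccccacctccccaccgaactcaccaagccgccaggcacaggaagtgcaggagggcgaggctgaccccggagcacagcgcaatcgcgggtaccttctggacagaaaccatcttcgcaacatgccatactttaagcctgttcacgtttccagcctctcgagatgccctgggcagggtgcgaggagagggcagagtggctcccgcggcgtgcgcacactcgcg

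The Gabrg1 window held 1 CpG and 35.6% G and C, against 18 and 70.0% for Gabra2, 12 and 61.2% for Gabra4 and 18 and 64.4% for Gabrb1. Capitals stand in the windows of Gabra2 and Gabra4. Promoters were found for 25 of the 35 genes, 32 in all. Of these 16 held GGGCGG on either strand (50%), against 32.7% of 32851 promoters of the same length, and 4 held TATAAA (12.5% against 12.4%). Windows of 1 gene can overlap and share a match, as for Gabra3 and Grm7. By gene, 15 of 25 held GGGCGG (9555 of 27025 over all genes) and 3 of 25 held TATAAA (3872 of 27025). TGACGTCA, the cAMP response element, was in 0 of the 32 (1.55% of all), and CAGCTG, an E-box, in 0 (13.0% of all). The median number of CpGs was 9 in these promoters and 6 in all. Such matches describe letters and do not show that a factor binds.

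The AMPA receptor genes were all called. Gria2, the subunit that keeps AMPA channels closed to calcium, ran from 2826 to 3145 with a median of 2938 at 6 months, and from 1757 to 2017 with a median of 1838 at 14 months (1421970_a_at). No 14-month array reached the 6-month range, and the difference of -0.68 ± 0.0289 had the smallest adjusted p of all members (2.2e-12). As deposited it was -0.17 and not called (adjusted p = 0.235), while all probe sets rose by a median of 0.42. Gria3 fell from a median of 1043 to 663.7 without overlap, by 0.61 ± 0.0533, and as deposited lay at -0.09, not called. Gria1, the subunit most tied to activity-dependent insertion at synapses, fell by 0.35 ± 0.0784 with overlapping arrays and medians of 1293 and 1009.5, a sign that turned as deposited (0.17). Gria4 moved the other way, from 449.2 to 595.2 at 6 months to 637.0 to 794.3 at 14 months. Its ranges were apart, and it rose by 0.44 ± 0.0506 (adjusted p = 6.15e-07) and by 0.96 as deposited.

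The kainate receptors were divided. Grik5, a subunit that raises glutamate affinity, ran from 298.2 to 445.4 at 6 months and from 161.0 to 237.3 at 14 months. Its medians of 327.6 and 210.3 differed by -0.78 ± 0.0717 (adjusted p = 4.11e-08) without overlap. As deposited Grik5 lay at -0.29 and was not called (adjusted p = 0.0617). Grik3, a subunit of low glutamate affinity, rose by 0.57 ± 0.0914 (adjusted p = 3.61e-05), from a median of 132.6 to 196.4 with some overlap. Grik1 (0.28 ± 0.125), Grik2 (0.19 ± 0.0931) and Grik4 (-0.38 ± 0.164) were not called. Grik1 passed in 4, Grik2 in 2 and Grik4 in 5 of the 18 fits that left out 1 array, and Grik4 passed with trimmed mean scaling (-0.54, adjusted p = 0.00625). As deposited Grik1 (0.56, adjusted p = 0.00292) and Grik2 (0.60, adjusted p = 0.000151) were called higher. The other probe set of Grik2, 1425790_a_at, fell by 0.63 ± 0.0818 and was called lower on each diet.

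Among NMDA receptor genes Grin2a, the regulatory subunit that predominates in the adult forebrain, was dim but clearly lower, at 45.7 to 77.5 (median 57.4) at 6 months and 24.5 to 41.7 (median 32.7) at 14 months. The durations did not overlap, and it fell by 0.84 ± 0.117 (adjusted p = 7.15e-06). Grin2c had medians of 83.0 and 111.6 with overlap and rose by 0.39 ± 0.0945 (adjusted p = 0.00177). Grin2b, the subunit that precedes Grin2a in development, had medians of 263.4 and 256.7 and was not called (-0.01 ± 0.0659). Its 95% interval was -0.15 to 0.12, but the sign turned as deposited (0.47) and Grin2b was then called higher (adjusted p = 0.00159). Grin2d (-0.02 ± 0.104) and Grin3a (-0.16 ± 0.0708) were not called. Grin3a passed in 5 of 18 fits that left out 1 array and with trimmed mean scaling (-0.20, adjusted p = 0.0139). As deposited Grin2d was called higher (0.35, adjusted p = 0.0346). Grin3b lay below the filter. Grid1, the delta receptor that binds cerebellins, was not called by either probe set (-0.01 ± 0.0612 and -0.21 ± 0.123). Its brightest probe set was called higher as deposited (0.46, adjusted p = 0.0023).

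Of the metabotropic receptors 4 fell, 1 rose and Grm8 was not called (0.05 ± 0.101), though it was called higher as deposited (0.42, adjusted p = 0.0115). Grm5, which couples to phospholipase C, ran from 879.1 to 1148 (median 1021) at 6 months and from 560.3 to 703.7 (median 614.1) at 14 months. The ranges were apart, and it fell by 0.70 ± 0.0524 (adjusted p = 2.89e-09), to -0.18 and no call as deposited. Grm2 and Grm3, which lower cyclic AMP, fell by 0.53 ± 0.102 and 0.45 ± 0.0646 with overlapping arrays, and Grm3 turned sign as deposited (0.07). Grm7, a presynaptic receptor of low affinity, fell by 0.19 ± 0.0462. As deposited Grm7 turned to 0.33 and was called higher (adjusted p = 0.0228). Grm4, also a presynaptic receptor, ran from 70.6 to 137.0 (median 100.8) at 6 months and from 168.3 to 222.5 (median 186.7) at 14 months. It was the member with the greatest rise by its brightest probe set, 0.94 ± 0.109 (1.92-fold, adjusted p = 7.61e-07), and 1.37 as deposited.

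**Figure D2:**
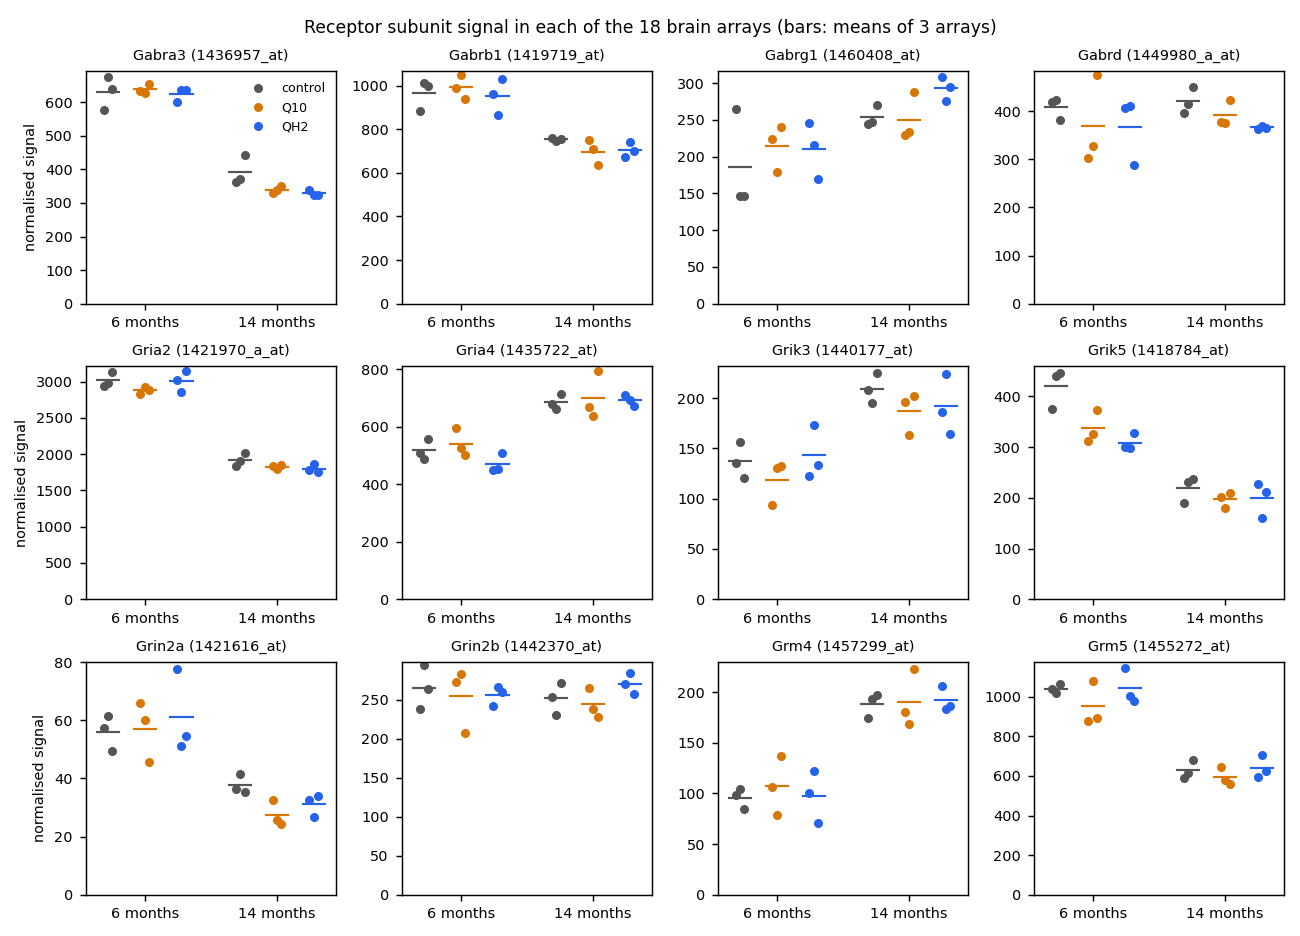
Normalised signal of 12 receptor genes in each of the 18 brain arrays, 1 point per array, with bars at the mean of 3 arrays; grey is control diet, orange Q10 and blue QH2. The durations are apart for Gabra3, Gabrb1, Gria2, Gria4, Grik5, Grin2a, Grm4 and Grm5 and overlap for Gabrg1, Gabrd, Grik3 and Grin2b; as deposited, the signs of Gabrb1 and Grin2b turn.

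Probe sets of the same gene did not always go together, which matters because each reads a different stretch of the transcripts. Of 17 genes with over 1 tested probe set, Gabrb2 was the sole gene called in both directions, from -1.06 ± 0.0649 (1450319_at) to 0.15 ± 0.0428 (1428203_at), with 3 of its 5 probe sets called lower and 1 higher. The dimmest probe set of Gabrb2 had medians of 290.4 and 143.9 without overlap, while the probe set that rose had 1333 and 1455 with overlap. Gria2 fell by all 3, from -1.15 ± 0.0806 to -0.55 ± 0.0586. Gabrg3 fell by 3 of 4, most by a dim probe set with medians of 59.1 and 11.7 (-2.30 ± 0.316), and Gria4 rose by all 3 (0.37 to 0.53). Gabra4 was called by its bright probe set and not by the other (0.04 ± 0.100). Which transcript forms these probe sets read was not tested.

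**Figure D3:**
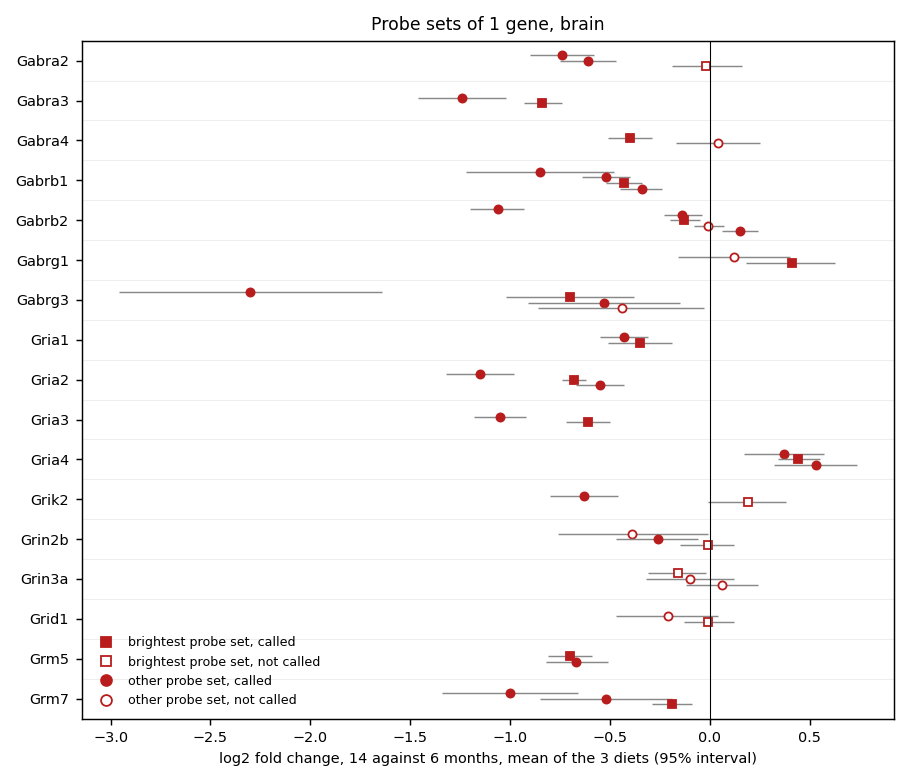
Log2 fold change at 14 against 6 months over the 3 diets (9 against 9 arrays) with its 95% interval, for every tested probe set of the 17 genes with over 1; squares mark the brightest and filled marks the called probe sets. The Gabrb2 marks run from -1.06 to 0.15 and those of Gria4 from 0.37 to 0.53, on normalised values; as deposited the signs of the brightest probe sets of Gabra2, Gabra4, Gabrb1, Gabrb2, Gria1, Grid1, Grin2b, Grin3a and Grm7 turn.

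Genes that work with these receptors were counted in the same comparison. Of 17 auxiliary subunits of glutamate receptors 5 rose and 7 fell (10 and 1 as deposited). Cbln1, the cerebellin that ties delta receptors to presynaptic neurexins and itself one of the cerebellar markers above, rose by 4.02 ± 0.128 (mean signal 94.8 to 1470). The AMPA auxiliary Cacng3 fell by 1.23 ± 0.0806 (567 to 243), and Cacng8 rose by 2.96 ± 0.338 from a very low level (5.77 to 41.1). The kainate auxiliary Neto1 fell by 0.55 ± 0.0599. Of 14 scaffold genes of the postsynaptic density 2 rose and 9 fell (6 and 0 as deposited), with Dlg2 up by 1.08 ± 0.0494, Homer3 up by 1.86 ± 0.145, Homer1 down at -0.77 ± 0.0529 and Dlg4 (PSD-95) down at -0.58 ± 0.0481.

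Of 9 genes of glutamate packaging and uptake 6 rose and 3 fell (6 and 1 as deposited). The vesicular transporter Slc17a7, typical of cortical neurons, changed by -0.87 ± 0.0898 and Slc17a6, typical of thalamus and brainstem, by 1.28 ± 0.181. The Purkinje cell transporter Slc1a6, also a cerebellar marker here, rose by 2.41 ± 0.138. On the GABA side 3 of 7 genes of synthesis, packaging and uptake rose and 1 fell (6 and 0 as deposited), with the transporter Slc6a11 at 0.75 ± 0.126, the GABA-making enzyme Gad1 at 0.40 ± 0.0789, the GABA-degrading enzyme Abat at 0.39 ± 0.0770 and the other GABA-making enzyme Gad2 at -0.29 ± 0.0933, which turned to 0.23 as deposited. Of 10 genes of receptor anchoring and the chloride gradient 2 rose and 6 fell, a split that turned to 10 and 0 as deposited. The scaffold gephyrin (Gphn, -0.22 ± 0.0418, but 0.30 as deposited) and its partner Nlgn2 (-0.20 ± 0.0452, but 0.32) were among those that fell, while the chloride importer Slc12a2 rose by 0.56 ± 0.0658. Of 3 genes of the GABA-B receptor 1 rose (Kctd8, 0.86 ± 0.133), 1 fell (Kctd16, -0.58 ± 0.130) and Gabbr1 was not called (-0.04 ± 0.0407, but 0.46 and called as deposited).

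The study's question was whether Q10 or QH2 changes expression, and no receptor subunit was called for either compound in brain. At 6 and at 14 months, for QH2 against control, Q10 against control and QH2 against Q10, limma called 0 of the 60 member probe sets. Of all 27022 probe sets 0% were called in these 6 comparisons except for QH2 against control at 14 months (0.0111%). At an unadjusted p under 0.05 the members numbered 3 for QH2 against control at 6 months (8.56% of all probe sets), 3 for Q10 against control at 6 months (6.11%) and 6 for QH2 against Q10 at 6 months (7.66%). At 14 months they numbered 3 (4.99%), 6 (5.28%) and 1 (4.74%) in the same order. The comparisons with control share their control arrays, so they are not independent.

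Grik5 came nearest at 6 months. Its signals were 375.0, 439.4 and 445.4 on control diet, 311.2, 326.2 and 373.0 on Q10 and 300.5, 298.2 and 327.6 on QH2, so that both compounds lay below all controls. Arrays were apart in this way, on the lower side, for 6% of all probe sets for QH2 and 4.73% for Q10. The difference was -0.44 ± 0.124 for QH2 (adjusted p = 0.325) and -0.32 ± 0.124 for Q10 (adjusted p = 0.783). Grm2, at 147.1, 229.3 and 222.8 on control diet and 149.2, 113.2 and 197.1 on QH2, had -0.39 ± 0.176 with overlap, and Grin2c -0.35 ± 0.164 and Gria4 -0.14 ± 0.0877. On Q10 at 6 months Grin3a had 148.1, 134.3 and 163.8 against 126.7, 127.1 and 112.5 in controls. This was 0.28 ± 0.123 (adjusted p = 0.805) but -0.06 as deposited. Grin2d (0.42 ± 0.181) and Gabrb2 (0.11 ± 0.0606, but -0.17 as deposited) followed.

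At 14 months, among the brightest probe sets of the genes, Gabra3 had the smallest adjusted p, at 363.0, 370.6 and 442.4 on control diet, 330.8, 339.0 and 350.4 on Q10 and 340.1, 324.2 and 324.0 on QH2. Again both compounds lay below all controls (lower without overlap in 6.95% of all probe sets for QH2 and 6.48% for Q10). The differences were -0.24 ± 0.0795 for QH2 (adjusted p = 0.846) and -0.20 ± 0.0795 for Q10 (adjusted p = 0.870). For QH2 the next were Gria2 (-0.09 ± 0.0501), Grin3a (-0.18 ± 0.123) and Gabrd (-0.20 ± 0.141). For Q10 they were Grin2a (-0.44 ± 0.203), Gabrb2 (-0.12 ± 0.0606) and Grm7 (-0.15 ± 0.0800). On Q10 27 of the 30 genes had a negative difference (median -0.09), with 0 called, and on QH2 19 of 30 (median -0.08). As deposited these were 30 and 26 of 30, again with 0 called, and at 6 months, where 13 genes were negative on Q10 and 20 on QH2, they were 29 and 30. All genes of a comparison rest on the same arrays, so their signs are not independent. These counts of signs were not tested, and the share over all genes is not given here.

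Among probe sets that are not the brightest of their gene, a pair had lower adjusted p-values than Gabra3 at 14 months. The second Grik2 probe set, 1425790_a_at, read 79.7, 72.6 and 79.2 in controls at 14 months, 67.4, 57.5 and 52.5 on Q10 and 60.9, 50.5 and 50.6 on QH2, at -0.51 ± 0.142 for QH2 (adjusted p = 0.705) and -0.39 ± 0.142 for Q10 (adjusted p = 0.834). A Gria2 probe set, 1453098_at, read 303.4, 352.8 and 516.4 in controls at 14 months and 498.5, 501.0 and 574.5 on Q10, at 0.46 ± 0.140 (adjusted p = 0.774). It was called without control array 3 (0.68 ± 0.111, adjusted p = 0.0208), the sole call of a member in any diet comparison under any setting tried.

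QH2 and Q10, given at the same dose, could be set against each other directly over 30 genes at each duration. At 6 months the lowest p among the brightest probe sets was that of Grin3a (122.6, 119.7 and 106.0 on QH2 against 148.1, 134.3 and 163.8 on Q10), at -0.35 ± 0.123 with a 95% interval of -0.61 to -0.10 (adjusted p = 0.499). Grm2 (-0.44 ± 0.176), Gria4 (-0.20 ± 0.0877) and Gabrb2 (-0.13 ± 0.0606) followed. At 14 months the lowest were Grm7 (0.12 ± 0.0800), Grin3a (-0.17 ± 0.123), Grin2b (0.15 ± 0.114) and Gabrg1 (0.23 ± 0.183), each with an adjusted p of 1. The 95% interval of the difference between the compounds lay within 1 log2 unit of 0 for 29 of 30 genes at 6 months and 30 at 14 months, and within 0.5 for 18 and 23. Differences smaller than that were not resolved with 3 arrays per group. No difference between durations in the effects of the compounds was called by limma for any member, with 0 called for QH2 (0.0296% of all probe sets) and 0 for Q10 (0% of all). This does not show that the effects were the same. At an unadjusted p under 0.05 there was 1 member for QH2 (6.32% of all) and 1 for Q10 (4.96% of all).

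**Figure D4:**
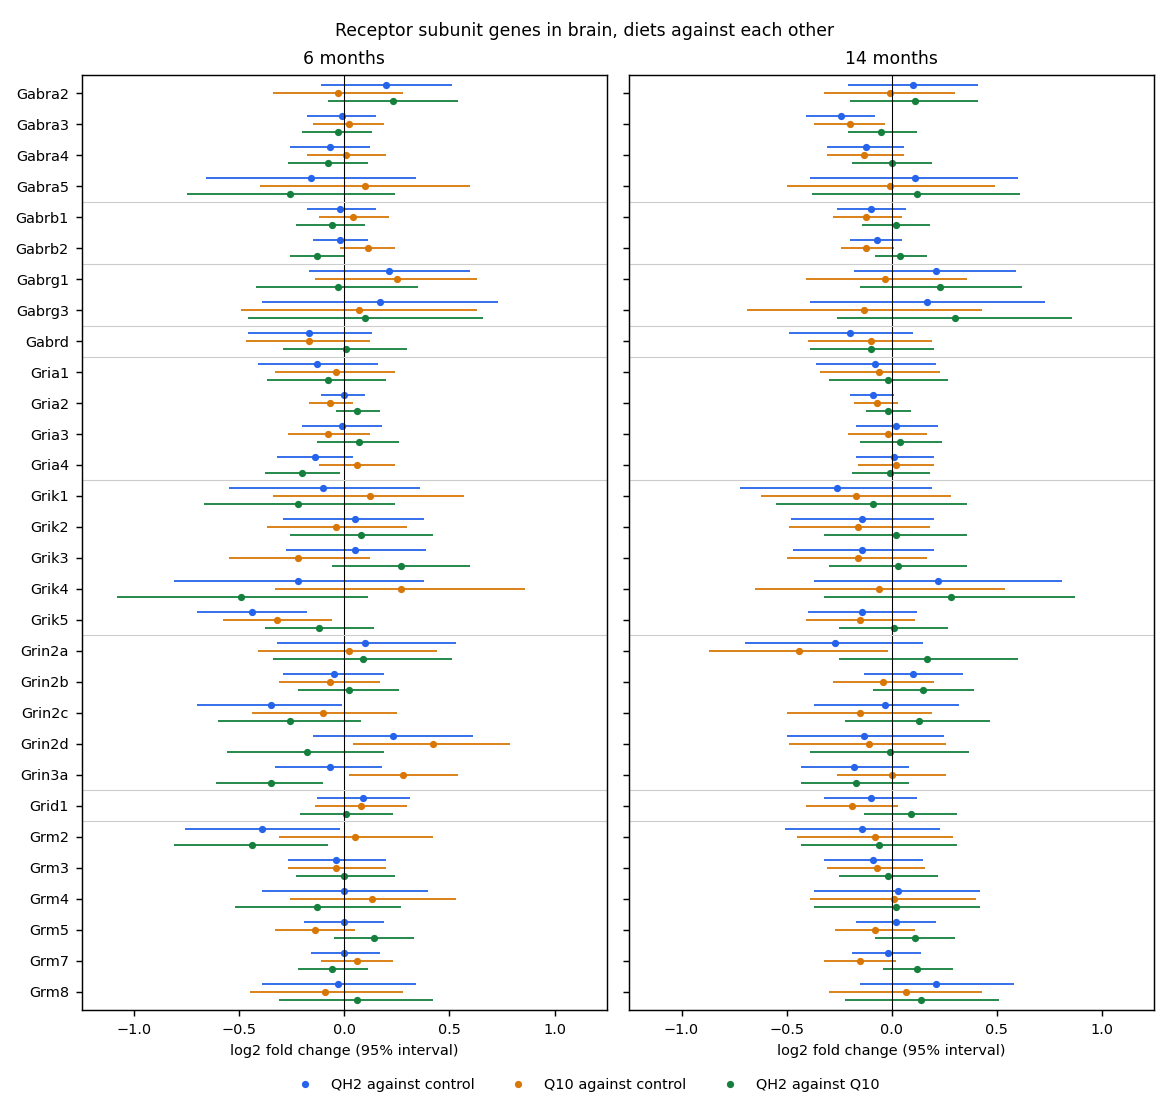
Log2 fold change with its 95% interval for 30 receptor genes in brain at 6 and 14 months, 3 against 3 arrays, with QH2 against control in blue, Q10 against control in orange and QH2 against Q10 in green. No member was called; the points lowest in p are Grik5 at 6 months and Gabra3 at 14 months on both compounds, and as deposited 16 of the 30 Q10 points and 10 of the 30 QH2 points against control turn sign at 6 months, and 3 and 7 at 14 months, and 5 and 4 of those of QH2 against Q10.

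Markers of striatal neurons also varied between the 6-month arrays, and members were set against them. The summed signal of 8 markers of striatal projection neurons ran from 2390 to 8160 on control diet, 1920 to 6480 on Q10 and 2010 to 7890 on QH2 at 6 months, but from 3560 to 4520 over all arrays at 14 months. Over the 9 arrays at 6 months Gabra5 (225.5 to 453.8) ran against the mean log2 level of these markers, with Pearson's r = -0.92 (exact permutation p = 0.00769) and Spearman's rho = -0.82 (exact permutation p = 0.0108), and r = -0.92 without the 2 arrays farthest from the median. Gabrd ran with it, at r = 0.87 (exact permutation p = 0.0020) and rho = 0.70 (exact permutation p = 0.0433), and 0.73 without 2 arrays. Gria1 (1435239_at) had r = -0.87 (exact permutation p = 0.00452) and rho = -0.80 (exact permutation p = 0.0138), and -0.86 without 2. In all 12 of 60 probe sets had an unadjusted p under 0.05 for r. None passed Benjamini-Hochberg adjustment over the 180 relations computed at that duration with striatal markers, cerebellar markers and the Actb 3' to 5' ratio, where the lowest adjusted p was 0.297. Only members were set against these measures, so the counts have no share over all probe sets beside them. Arrays of different durations lie in separate clusters, and no r over all 18 is given. After the 6 group means were taken off, 9 of 180 relations over the 18 arrays passed, 7 of them with the striatal markers (4 positive and 3 negative). That permutation took the 18 deviations as exchangeable, though they add up to 0 within each group and the striatal level varied less at 14 months. Its p-values can therefore be too small, and nothing is concluded from these 9. With the striatal level as a covariate, chosen after seeing the data, the diet comparisons still called 0 members.

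Outside the brain most subunits were at or near background. Of the 72 probe sets 60 had a mean above the 40th percentile of their tissue in brain, 12 in liver, 9 in kidney and 12 in heart. By its definition that cut leaves the same share of all probe sets above it in each tissue. Of the same 72, 61 had their highest mean in brain, 4 in liver, 7 in heart and 0 in kidney. The split over all probe sets is not given here. The counts of members describe levels only, with no test, since a probe set that is bright in a single tissue passes a filter through that tissue. Gria2 (1421970_a_at) ran from 1569 to 3214 in brain, and its highest value elsewhere was 19.8, in kidney.

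The 11 probe sets with their highest mean outside brain were of GABA-A genes (Gabre, Gabrq, Gabrr1, Gabrr2 and dim probe sets of Gabra2 and Gabrd), of NMDA genes (Grin3b, a dim probe set of Grin2b and both of Grin2d) and a dim probe set of Grik3. Among them, those above the 40th percentile of the tissue where they were highest were Gabrr2, Grin3b and Grin2d. Gabrr2, a rho subunit best known from the retina, had a mean of 16.2 ± 7.06 in heart and 4.27 ± 2.99 in brain (SD, 18 arrays each), with overlapping arrays. Grin3b, an NMDA subunit known from motor neurons, had a mean of 7.78 ± 4.78 in brain, below 26.8 ± 15.1 in liver and 20.0 ± 8.8 in kidney, also with overlap; its heart mean was 12.6 ± 10.6. Grin2d had 51.7 ± 10.7 in heart and 47.3 ± 8.74 in brain by its brighter probe set, and 12.8 ± 8.03 in liver and 5.43 in brain by the other. Other members above the percentile outside brain were dimmer there than in brain, among them Gabra3 in kidney (44.3 ± 13.6) and liver (25.9 ± 12.3), Grik5 in liver (35.4 ± 18.8) and kidney (22.6 ± 7.74), and Gria3 (23.0 ± 8.46) and Gria4 (19.3 ± 5.29) in kidney.

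**Figure D5:**
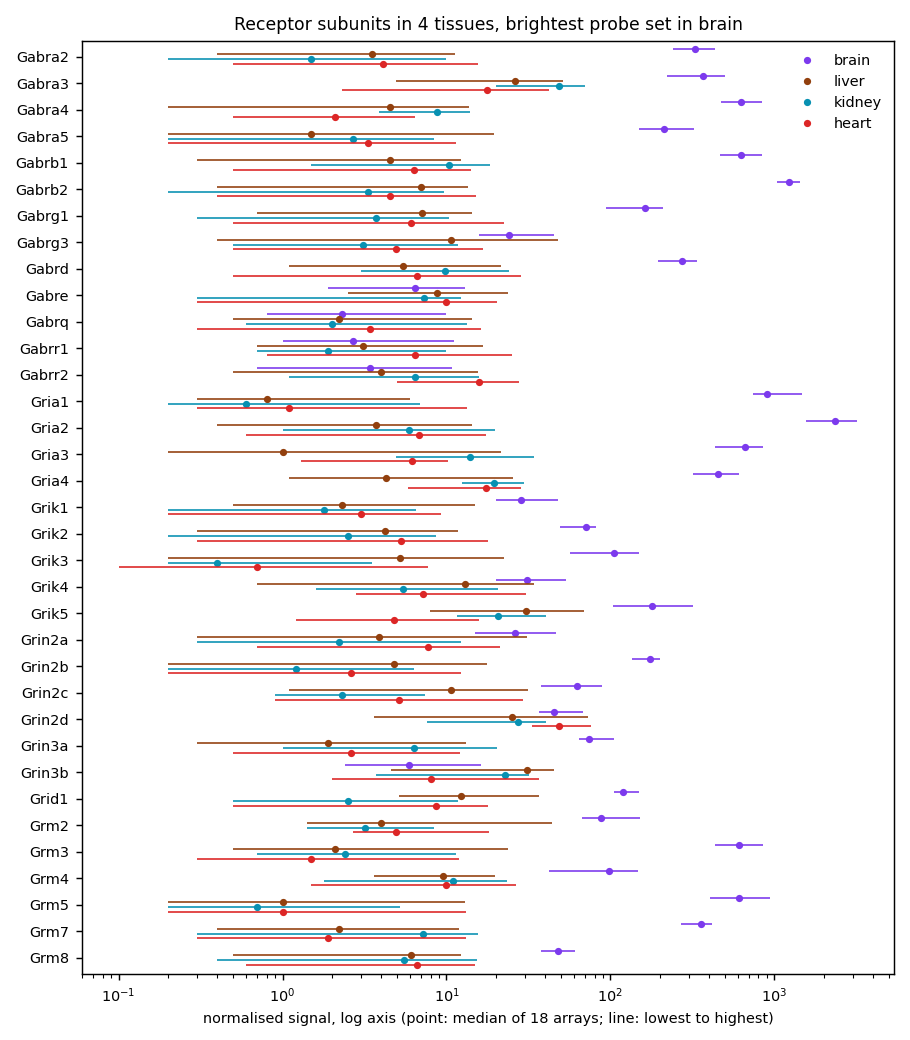
Normalised signal of 35 receptor genes in 4 tissues on a log axis, by the probe set brightest in brain; points are medians and lines run from the lowest to the highest of 18 arrays. In these probe sets brain lies above the other tissues without overlap for most genes. It does not for Gabre, Gabrq, Gabrr1, Gabrr2, Gabrg3, Grik4, Grin2a, Grin2d and Grin3b. Choosing probe sets by their level in brain favours brain, so this describes levels without a test. The share over all probe sets is not given here. Levels of different genes cannot be compared, since each rests on its own probes.

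In separate fits of each tissue no member was called in any of the 6 diet comparisons of liver (12 tested; up to 9.74% of all probe sets called), kidney (9 tested; up to 6.04%) or heart (11 tested; up to 0.0666%). At 14 against 6 months over the 3 diets 4 of 9 members fell in kidney (40.9% of all were called): Gabra3 by 0.78 ± 0.153, Gria3 (1420563_at) by 0.75 ± 0.191, Gria2 (1453098_at) by 0.97 ± 0.278 and Grin2d by 0.92 ± 0.218. In heart 1 of 11 was called, a Grin2b probe set (1422223_at) that fell by 1.66 ± 0.398 (18.8% of all were called), and in liver 0 of 12 (20.8% of all). All these probe sets are dim there, with means of 13.0 to 44.3.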

How the data were processed

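RNA of 4 tissues was hybridised to Affymetrix Mouse Genome 430 2.0 arrays, 1 array per mouse and tissue. The authors deposited a linear intensity for each of 45101 probe sets and array, made with GCOS per the submitters' processing notes; no version or scaling target was found in the labels. Symbols came from the platform's annotation (34945 probe sets with 1 gene, 932 with several, 9160 with none; 64 control probe sets were left out), and all 35 member genes matched RefSeq by Entrez ID.

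The 18 brain arrays were quantile normalised, 1 was added, and log2 values of probe sets above the 40th percentile of mean signal (19.1) were fitted with limma 3.58.1 (R 4.3.3) as 6 group means with an intensity trend. P-values were Benjamini-Hochberg adjusted over all probe sets tested and called under 0.05. A gene stands by its brightest tested probe set. Levels in the 4 tissues are from all 72 arrays, of 24 groups, quantile normalised together, and are given without a test. Exact permutation tests were two-sided. With 3 arrays against 3 such a test cannot reach the threshold, and limma was used instead. The scripts were tested on simulated data. No 2 arrays were identical. Cage and array batch were not analysed here, and p-values measure the spread between arrays.

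Members and gene lists were chosen with earlier results of these data known. Genes named are members with a called probe set in brain, the 4 with the smallest p in each diet comparison without calls, the smallest p of each subfamily for duration, members above the percentile elsewhere and not higher in brain, and up to 4 called genes of each other list. Gria2 probe set 1453098_at, Grik2 probe set 1425790_a_at and the members described by region markers or by level outside brain were chosen after their values were seen. Alternatives were the deposited scale, trimmed mean scaling, other offsets and filters, covariates, array weights, a replicate block, fits of only the groups compared, and leaving out each array.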

Additional observations from a re-analysis of the deposited data

How the results depend on the processing

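For 14 against 6 months the deposited scale called 14 member probe sets on control diet, 16 on Q10 and 15 on QH2, with no share over all probe sets given here. The Actb 3' to 5' ratio as a covariate called 18 on control diet and 26 over the 3 diets. The cerebellar marker level as a covariate called 0 on each diet and 0 over the 3 diets; this level lay between 5.352 and 6.253 at 6 months and 9.136 and 9.414 at 14 months, so the covariate takes up the contrast by construction. As deposited the log2 fold change over the 3 diets turned to 0.09 for Gabrb1, 0.39 for Gabrb2, 0.07 for Grm3, 0.44 for Gabra5, 0.12 for Gabra4, 0.17 for Gria1, 0.27 for Grin3a, 0.46 for Grid1, 0.35 for Grin2d, 0.47 for Grin2b, 0.33 for Grm7 and 0.50 for Gabra2. It turned to -0.05 for Grm8 and 0.03 for Gabra2 with trimmed mean scaling, to -0.02 for Grm8 and 0.07 for Grid1 with the Actb ratio, and to 0.00 for Grid1 with the striatal level, added after seeing the data. With the cerebellar level it turned to 0.55 for Grm3, 0.39 for Gabra4, -0.41 for Gria4, 0.39 for Grin3a, 0.24 for Grin2b and 0.53 for Gabra2. As deposited, signs of 16 of 30 genes turned for Q10 against control at 6 months, among them the named Grin3a (-0.06) and Gabrb2 (-0.17), of 10 for QH2 against control, and of 3 and 7 at 14 months. Apart from the constructions named, the cause was not tested.

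Without 1 array the calls ranged from 24 to 29 on control diet, 31 to 34 on Q10, 27 to 30 on QH2 and 41 to 43 over the 3 diets, and from 0 to 1 for Q10 against control at 14 months; other diet comparisons stayed at 0. Uncalled genes changed sign within -0.07 to 0.03 (Gabra2), -0.15 to 0.05 (Gabra5), -0.03 to 0.03 (Grid1), -0.06 to 0.01 (Grin2b), -0.11 to 0.03 (Grin2d) and -0.02 to 0.10 (Grm8). Of 180 relations with striatal markers, cerebellar markers and the Actb ratio 78 passed over all 18 arrays, where the durations form separate clusters (27 positive and 6 negative with the Actb ratio), 9 after the group means were taken off (1 and 1 with the Actb ratio), and 0 within 6 months and 0 within 14 months. The 9 rest on deviations taken as exchangeable, which they are not, and only members were computed. Same-numbered brain arrays had a median correlation of 0.005 of their deviations (-0.148 to 0.173), so the numbers do not pair arrays. The replicate block gave 30, 34, 32 and 42 calls for duration on control diet, Q10, QH2 and over the 3 diets, and 0 for diets. Signal near background limits dim members such as Grin2a and Gabrg3.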
